A study of Mus musculus with 2 samples.

Results

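Slit proteins are large secreted ligands and Robo proteins are their single-pass receptors of the immunoglobulin superfamily. The genes described here are the 3 Slit ligands (Slit1, Slit2, Slit3) and the 4 Robo receptors (Robo1, Robo2, Robo3, Robo4) of the mouse, chosen by name from the gene table deposited with a map of POU3F1 on chromatin. That table holds 2323 genes, and 4 of the 7 Slit and Robo genes are in it: Slit1, Slit3, Robo1 and Robo2, with 22 assigned peaks in all. Slit2, Robo3 and Robo4 have no row, so no peak was assigned to them.

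The data came from CUT&RUN, in which a nuclease tethered to chromatin by an antibody cuts out the DNA around the target for sequencing. Retina of wild-type (WT) CD1 mouse embryos at embryonic day 14 gave 1 library with an antibody to the POU-domain transcription factor POU3F1 and 1 with rabbit IgG. Both libraries thus share tissue, strain, genotype and age and differ in the antibody. How many embryos were pooled, and of which sex, is not stated in the labels. Peaks were called once, for 1 POU3F1 library, so there is no replicate error, and the authors' deposited peak values describe that library. Retinal cells of every type were profiled as one sample, so the share of cells with POU3F1 at a site and the occupancy per cell cannot be told apart. The files hold no RNA values, so neither the labelled tissue nor the activity of any gene was checked with markers.

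As background, Slits repel growing axons that carry Robo receptors, and Slit–Robo signalling keeps axons on course where they meet or cross the midline. In the visual system Slit1 and Slit2 act inside the retina and around the optic chiasm, and Robo2 is a main receptor on retinal ganglion cells, which send their axons to the brain through the optic nerve. Robo3 is a divergent receptor best known from commissural axons of the hindbrain and spinal cord, and Robo4 is best known from blood vessel endothelium. The series concerns the genes that POU3F1 controls in ganglion cells projecting to the opposite side of the brain, and the question here is where its peaks lie at this ligand and receptor family.

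The ligand genes Slit2 and Slit3 also carry a microRNA, and none was listed for Slit1. Mir218-1 lies in Slit2 (chr5:48223942-48224051) and Mir218-2 in Slit3 (chr11:35616816-35616925), and the mature miR-218 they share is known to repress Robo messages. The mature sequences are shown because one copy lies in a ligand gene with peaks and the other in one without. They are from RefSeq (GRCm38.p6, plus strand), written 5′ to 3′ with the seed, bases 2 to 8, in capitals.
mmu-miR-218-5p, from both genes: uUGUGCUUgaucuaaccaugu
mmu-miR-218-1-3p, from Slit2: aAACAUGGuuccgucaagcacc
mmu-miR-218-2-3p, from Slit3: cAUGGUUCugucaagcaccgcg
The 5p arms were one and the same sequence with the seed UGUGCUU, while the annotated 3p arms had the seeds AACAUGG and AUGGUUC. The peak closest to Mir218-2 was 46.6 kb away, inside Slit3. The closest to Mir218-1 was 1393 kb away, outside Slit2.

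Of the 7 genes, 4 (57.1%) had an assigned peak, where 10.2% of 21900 protein-coding genes did. Length bears on this share: among protein-coding genes whose annotated body is at least 100 kb it was 32.3%. Slit1, Slit2, Slit3, Robo1 and Robo2 are all in that length class, with bodies of 149, 326, 587, 1020 and 1555 kb. Among protein-coding genes of at least 500 kb, a class that includes Slit3, Robo1 and Robo2, 57.7% had an assigned peak. Robo3 and Robo4 are short, with bodies of 17.4 and 12.1 kb. The 4 genes with peaks were thus 4 of the 5 long members, and Slit2 was the long member without one. Members and lists were chosen with results of these data known, and nothing was tested over them.

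The number of peaks per gene was high at 3 of the 4. Robo1 and Robo2 had 7 assigned peaks each and Slit3 had 6. Among all genes listed, 71 had 7 or more and 105 had 6 or more; over protein-coding genes these were 0.32% and 0.461%. Slit1 had 2.

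By strength, the 22 peaks ran from rank 5 to rank 2192 of 2652. The fold is the authors' deposited value of signal at the summit relative to a background level that the peak caller computed for that place. Whether the IgG library entered that background is not stated in the labels. Its median over the 22 peaks was 6.64 (quartiles 5.35 and 9.48), close to the 6.37 of all 2652 peaks. Peaks of 10-fold or more were 5 of 22 (22.7%), against 18.7% of all peaks. Across the family the folds ran from 4.42 to 92.4. In the authors' list all 22 had a q-value under 0.01, and 21 had one under 0.001. Most peaks of the whole list passed these limits too, 2584 and 2439 of 2652. The 4 genes therefore kept a peak at both limits, against 9.92% and 9.52% of protein-coding genes. A peak of 10-fold or more was assigned to 3 of the 7 genes (Slit1, Slit3 and Robo1), against 2.76% of protein-coding genes. That share is over genes of every length and was not computed for long genes alone, although these 3 are long.

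**Figure D1:**
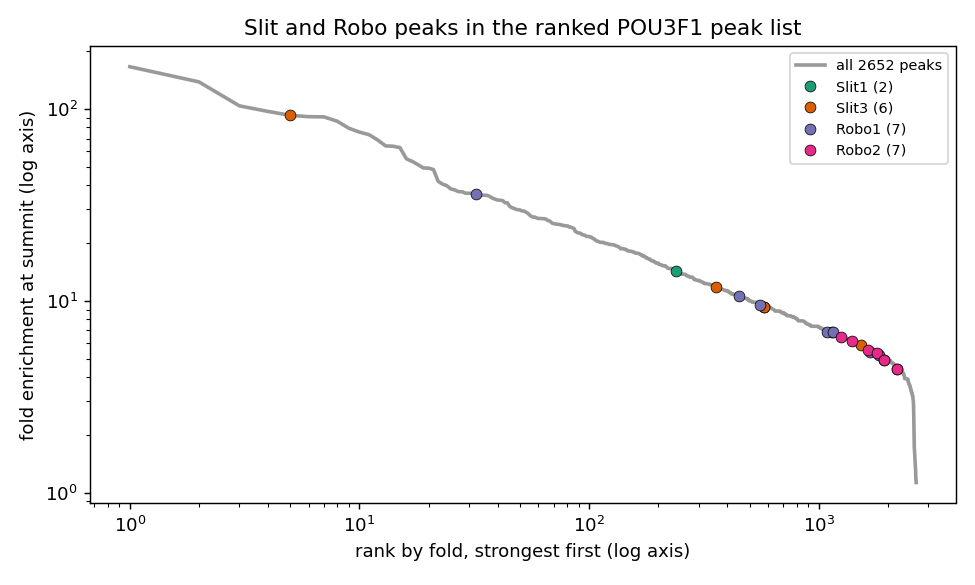
Fold enrichment at the summit (vertical log axis) of all 2652 POU3F1 peaks against their rank (horizontal log axis, strongest first), as a grey line, with the 22 Slit and Robo peaks as coloured points. One Slit3 peak ranks 5 and one Robo1 peak ranks 32, whereas the 7 Robo2 peaks lie at ranks 1244 to 2192.

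Slit3, the ligand gene with most peaks, had the strongest peak of the family. It lay at chr11:35454448-35455275, 828 bp long, with a 92.4-fold enrichment, rank 5 of 2652. Its summit pileup, the number of fragments over the summit as recovered from the deposited fold and p-value, was 259 over a local background of 1.81. The remaining 5 Slit3 peaks had folds of 11.8, 9.33, 9.33, 5.88 and 4.91, with summit pileups of 23, 18, 18, 20 and 9. The gene therefore combined 1 very strong peak with 5 of ordinary strength.

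The Slit3 peaks stood in the second part of a long gene, far from its start. They lay 333637, 359156, 384901, 386857, 388797 and 542497 bp downstream of the transcription start site (TSS) used by the assignment. That is 56.8% to 92.4% of the way along the 587 kb body. The middle 3 formed a tight group, chr11:35505914-35510230, with gaps of 1623 and 1610 bp between neighbouring peaks in a span of 4.32 kb. Among all peaks, 15.8% had another peak within 5 kb; among the 22 there were 5 (22.7%), these 3 and a pair in Robo2.

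Each of the 6 Slit3 peaks was assigned to Pank3 as well, a pantothenate kinase gene of coenzyme A synthesis that begins 61.0 kb beyond the end of Slit3. All of them were closer to the Pank3 TSS (314623, 289104, 263359, 261403, 259463 and 105763 bp) than to that of Slit3. Counting each peak for its nearest assigned TSS alone, Slit3 kept 0 peaks although all 6 lie within its annotated body. By that count 3 of the 7 genes had a peak, against 6.73% of protein-coding genes of every length. No peak lay in the body of Pank3. Which of the genes, if either, a peak acts on was not tested.

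Slit1, a ligand made in the developing retina, had 2 peaks, and one of them was the only peak of the family within 5 kb of the TSS used by the assignment. That one lay at chr19:41746249-41746833, 2876 bp upstream, with a fold of 6.87 (rank 1144, summit pileup 20 over a background of 2.06). The annotated Slit1 body reaches beyond that TSS, so the same peak lies inside it, 735 bp from its 5′ end. The other was stronger, 14.2-fold at chr19:41652078-41652571 (rank 239, pileup 28 over 1.04), 91341 bp downstream and 63.5% along the 149 kb body. Neither was assigned to another gene. The share of protein-coding genes with one so close was 1.4%.

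Slit2, the remaining ligand, lay in a stretch of 5.72 Mb without any peak, from 46831248 to 52550877 on chromosome 5. The peaks on either side were 5.46-fold and 4.72-fold, 1150 kb before and 4243 kb after the Slit2 body, the first assigned to Lcorl and the second to Ccdc149 and Lgi2. By length it was number 63 of 2574 gaps between neighbouring peaks, whose median was 317 kb. That median counts each gap once, and a gene is more likely to lie in a long gap than in a short one. The gap around a typical gene was not measured, so how unusual this stretch is for a gene cannot be read from the median. With 0 peaks in 326 kb, a rate of up to 9.19 peaks per Mb is allowed by counting error alone, and the exact 95% Poisson interval reaches 11.3. Robo1 (6.86), Robo2 (4.5) and Slit3 (10.2 peaks per Mb) lie under the upper bound of that interval, and Slit1 (13.4, from 2 peaks, with an interval of 1.62 to 48.3) lies above it. Protein-coding bodies of at least 100 kb together held 1.56 peaks per Mb, which is also under that bound. All these intervals overlap, but whether the rate in Slit2 is lower than in the other members was not tested.

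Robo1, a Slit receptor of many neuron classes, had the second-strongest peak of the family. It was 36.0-fold at chr16:72699103-72699855 (rank 32, pileup 146 over 3.08), 36330 bp downstream of the TSS. The others had folds of 10.6, 9.53, 6.88, 6.84, 5.44 and 5.24. Their summit pileups, in the same order, were 26, 33, 13, 41, 24 and 15. None of the 7 was assigned to another gene.

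The Robo1 peaks flanked the TSS on both sides. Upstream lay 3, at 192843, 152275 and 17690 bp, and downstream lay 4, at 36330, 123806, 171197 and 212141 bp. The RefSeq body of Robo1 begins 636 kb upstream of that TSS, so the 3 upstream peaks are inside the annotated gene too. Together the 7 peaks covered the stretch from 43.4% to 83.1% of the 1020 kb body, a span of 405 kb. No 2 of them were within 5 kb of each other, the smallest gap being 40.2 kb.

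Robo2, a main Slit receptor of retinal ganglion cell axons, had as many peaks as Robo1 but weaker ones. The folds were 6.44, 6.15, 5.51, 5.32, 4.91, 4.43 and 4.42, with summit pileups of 22, 20, 13, 18, 9, 33 and 8. The strongest, at chr16:74375397-74375861, ranked 1244 and lay 35360 bp downstream of the TSS. The weakest (chr16:74113165-74113361, 297726 bp downstream) was the one peak of the 22 that missed a q-value of 0.001. The strongest of Robo2 was thus below the median of Robo1, 6.88, and 4 of its 7 peaks rest on fewer than 20 fragments. Of the 2607 peaks in the whole list with a recovered pileup, 1343 did so.

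Fold and pileup did not order these peaks in the same way. A Robo1 peak (9.53-fold) and a Robo2 peak (4.43-fold) both had a pileup of 33, over local backgrounds of 2.57 and 6.68 fragments. The latter background was the highest of the 22, for which the range began at 1.04. Over all 22 the median pileup was 20, against 19 for the 2607 of 2652 peaks for which it could be recovered. Under 20 were 9 of the 22 and 1343 of the 2607.

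**Figure D2:**
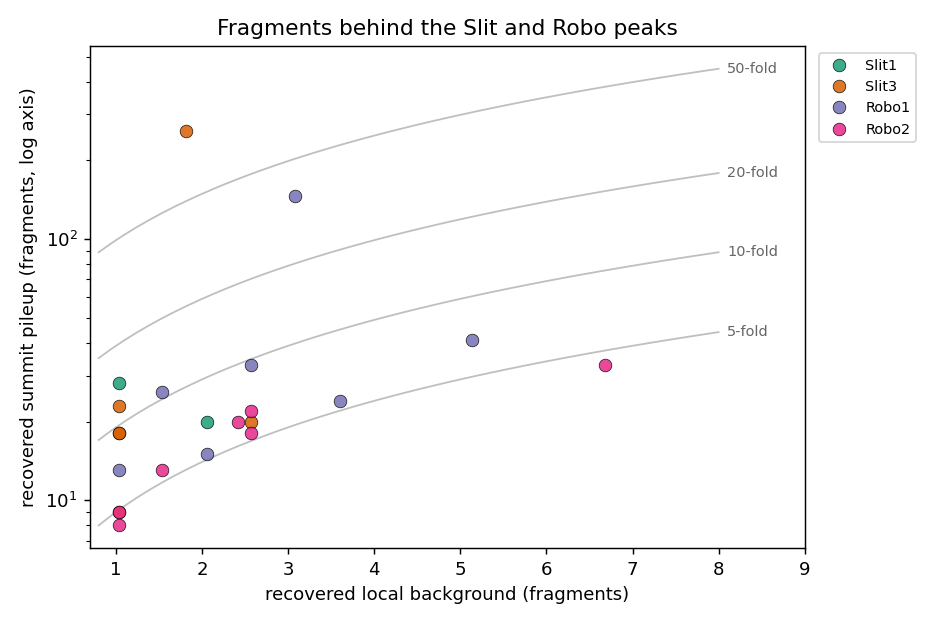
Recovered summit pileup (fragments, vertical log axis) against recovered local background (fragments, horizontal axis) for each Slit and Robo peak, with grey lines of equal fold. The 92.4-fold Slit3 peak and the 36.0-fold Robo1 peak stand above the others, and the Robo2 peak with a background of 6.68 lies just under the 5-fold line; points with equal values overlap.

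For Robo2, the choice of start changed what counts as distant. By the deposited distances, 2 of its peaks were the farthest of the family, 679314 and 678709 bp upstream. They form a pair, chr16:75089444-75089952 (4.43-fold) and chr16:75090184-75090422 (5.51-fold), 231 bp apart. RefSeq lists 3 starts for Robo2, at 0.15, 355 and 1036 kb from the 5′ end of the 1555 kb body, and the assignment measured from a site 836 bp from the last of them. Measured from the middle RefSeq start, at 75092770 on the minus strand, the pair lay 3073 and 2468 bp downstream. Both were also assigned to Lipi, a lipase gene, at 496363 and 495758 bp, which is nearer than the Robo2 TSS the assignment used. Over 17492 protein-coding genes with a listed start, 1.67% had a peak within 5 kb of any of them.

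The 250 bases upstream of these Robo2 starts are given because one start has peaks close by and the other is the listed start nearest to the site from which distances were measured. Both are from RefSeq (GRCm38.p6, minus strand), 5′ to 3′; no part is in capitals because no motif is marked.
Robo2 middle start, chr16:75092771-75093020: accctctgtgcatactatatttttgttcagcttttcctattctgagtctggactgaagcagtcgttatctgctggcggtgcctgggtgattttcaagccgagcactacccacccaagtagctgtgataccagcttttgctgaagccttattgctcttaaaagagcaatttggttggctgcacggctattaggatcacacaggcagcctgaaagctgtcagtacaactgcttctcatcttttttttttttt
Robo2 start nearest to the one used by the assignment, chr16:74411826-74412075: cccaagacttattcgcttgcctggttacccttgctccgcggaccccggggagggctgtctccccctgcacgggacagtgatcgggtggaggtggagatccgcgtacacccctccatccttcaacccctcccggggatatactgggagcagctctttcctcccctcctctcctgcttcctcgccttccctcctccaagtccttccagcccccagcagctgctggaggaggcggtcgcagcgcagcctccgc
The first has 44.8% G and C and 4 CG dinucleotides, and the second 65.6% and 14. Over 32851 windows of RefSeq starts the medians were 52.4% and 6. No peak overlapped either stretch.

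No peak overlapped a listed RefSeq start window of the family. RefSeq gave 8 start windows, each 250 bases before to 50 after the start, for Slit2, Slit3, Robo1, Robo2 (3), Robo3 and Robo4, and none of the 8 overlapped a peak. Slit1 had no window. The octamer ATGCAAAT, the classic word bound by POU proteins, was searched on both strands. It was in 0 of the 8 windows and in 1.74% of all 32851. At so low a share 0 of 8 is the likely outcome, so no conclusion was drawn from it. The peak intervals themselves were not searched, because no genome was used here.

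Robo3 and Robo4 are neighbours on chromosome 9, 2.02 kb apart, in a gap of 5.81 Mb between peaks, from 37077141 to 42885578. The closest peak, 5.89-fold at chr9:37076689-37077140, lay 325 kb from Robo4 and 339 kb from Robo3 and was assigned to Fez1 and Pknox2. The next on the other side was 5452 kb from Robo3. The bodies are so short that 0 peaks allows up to 172 peaks per Mb in Robo3 and 247 in Robo4, so no rate in these genes can be read.

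All 22 peaks had their midpoint inside the annotated body of the Slit or Robo gene they were assigned to. On the autosomes and chromosome X, 46.6% of 2594 peaks had it in the body of any protein-coding gene, assigned to them or not. That is a looser measure than lying in the assigned gene's own body. Being in the body did not mean being near a start: 18 of the 22 (81.8%) were over 50 kb from the TSS, and 76.2% of all 4427 gene and peak pairs were. Within 50 kb, 3 of the 7 genes had a peak (Slit1, Robo1 and Robo2), against 3.67% of protein-coding genes of every length. Exons and introns were not separated here.

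**Figure D3:**
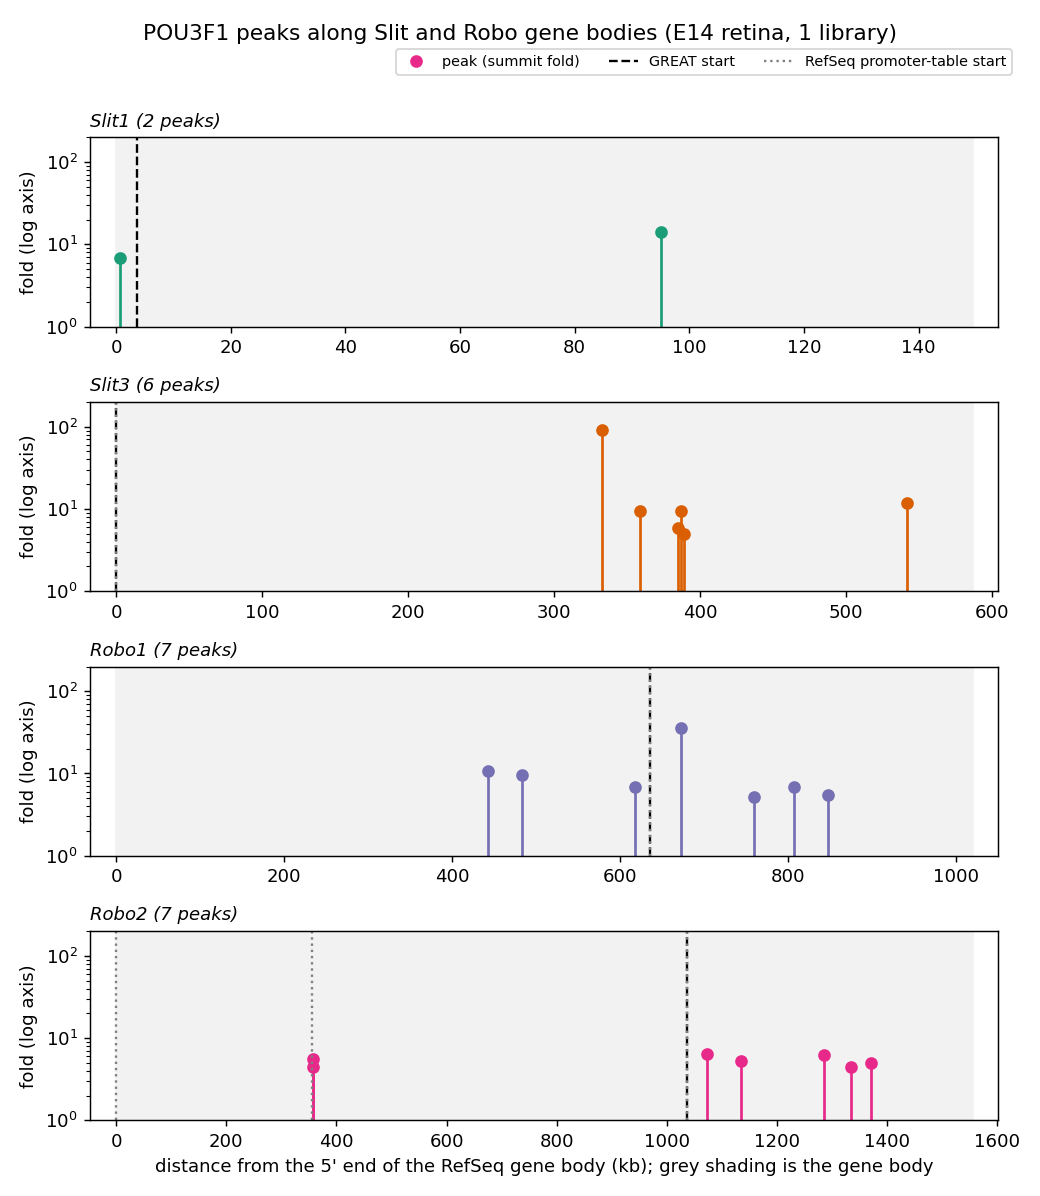
Fold at the summit (vertical log axis) of each POU3F1 peak along the RefSeq bodies of Slit1, Slit3, Robo1 and Robo2 (horizontal axis, kb from the 5′ end; grey shading is the body), with the start used by the assignment (dashed) and RefSeq starts (dotted). All 22 peaks fall in the bodies, the 6 of Slit3 start 333 kb into the gene, and a pair in Robo2 stands at its middle RefSeq start.

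Per length, the family's bodies held more peaks than gene bodies in general. The 7 bodies cover 3.67 Mb and held 22 peaks, 6.0 per Mb (95% exact Poisson interval 3.76 to 9.08, counting error only). All protein-coding bodies together held 1.17 per Mb (1.11 to 1.24), and those of at least 500 kb, which include Slit3, Robo1 and Robo2, held 1.65 (1.48 to 1.85). Of the genes of at least 500 kb, 51.1% had a peak in the body and 7.49% had 5 or more, and the Slit and Robo genes of that length each had 6 or 7. Over all protein-coding genes 3.43% had a peak in the body.

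Within the family the rates per gene had wide intervals. Slit1 had 13.4 peaks per Mb (1.62 to 48.3), Slit3 10.2 (3.75 to 22.2), Robo1 6.86 (2.76 to 14.1) and Robo2 4.5 (1.81 to 9.27). These intervals overlap, and differences between the genes were not tested. The intervals treat peaks as independent, though some peaks of Slit3 and of Robo2 lie close together. Counted as peaks in the body, 15 protein-coding genes had at least the 7 of Robo1 and Robo2, these included. Per length, among 2427 protein-coding genes of at least 100 kb, 41 had at least the rate of Slit1 and 64 that of Slit3. At least the rate of Robo1 was reached by 175 of them and that of Robo2 by 301.

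**Figure D4:**
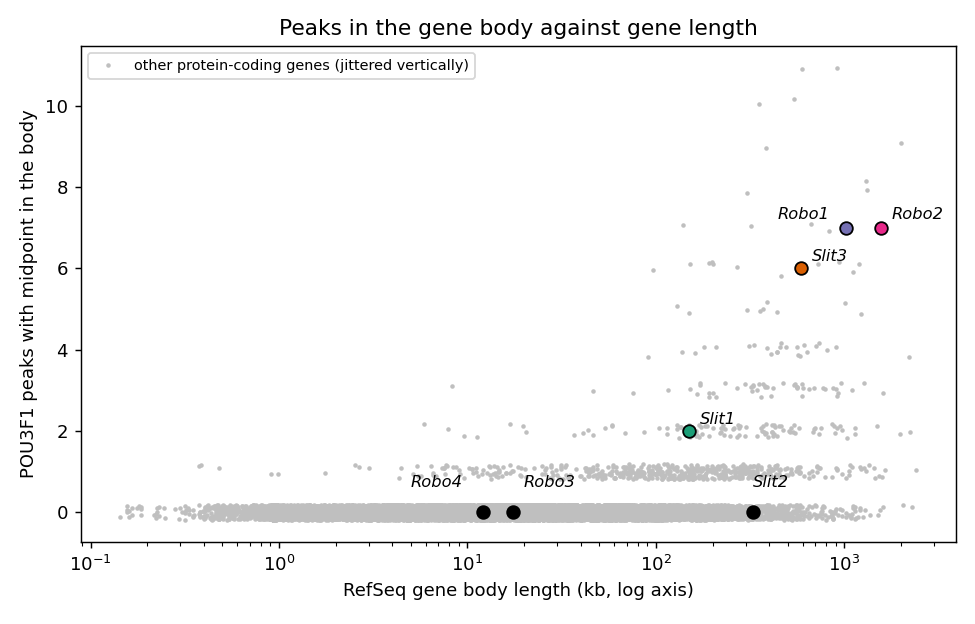
POU3F1 peaks with their midpoint in the gene body (vertical axis, other genes jittered) against RefSeq gene body length (kb, horizontal log axis) for protein-coding genes of the autosomes and chromosome X. Robo1 and Robo2 (7 each) and Slit3 (6) are among the long genes with most peaks, and Slit2, Robo3 and Robo4 lie at 0.

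The Robo1 and Robo2 genes stand side by side on chromosome 16, with 844 kb between their bodies. This interval held 0 peaks. The empty stretch from the last Robo1 peak to the first Robo2 peak was 1201 kb, so the 14 receptor peaks fell into separate groups, each inside its own gene.

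Around the family, a list of 54 genes of Slit–Robo partners, effectors and regulators had 18 with an assigned peak (33.3%). This is above the 10.2% of all protein-coding genes and near the 32.3% of those of at least 100 kb; the median body in the list was 63.5 kb. The list includes both Mir218 genes, which have no row. In 16 of the 18 genes the strongest peak was also assigned to another gene.

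Among signalling partners inside the cell, Evl, an actin regulator of the Ena/VASP family, had 1 peak (24.6-fold, 64844 bp upstream). Srgap3, an adaptor that binds the Robo tail, had 1 peak of 4.33-fold, 137250 bp downstream. Dock1, an exchange factor for Rac, had 1 of 7.37-fold, and Myo9b, an unconventional myosin, had 1 of 9.33-fold. Pxn, which encodes the adhesion adaptor paxillin, had 2, the stronger 6.63-fold at 15722 bp upstream. Ctnnb1 and Cdh2, the β-catenin and N-cadherin genes through which Slit–Robo signals reach cell adhesion, had 5 and 4, with strongest folds of 30.5 and 8.12. The strongest Ctnnb1 peak lay 313513 bp upstream.

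Among partners at the cell surface, Flrt3, a leucine-rich repeat protein that binds Robo1, had 7 peaks, the strongest 10.7-fold at 777925 bp upstream and the nearest 2109 bp from the TSS. Dscam, an immunoglobulin-type guidance receptor, had 5 (strongest 14.2-fold, 25705 bp downstream), and the netrin receptor gene Dcc had 2 (6.74-fold, 838711 bp upstream). Cxcr4, the chemokine receptor gene, had 3 (17.3-fold, 166765 bp upstream). Nell2, which encodes a ligand of Robo3, had 1 of 5.40-fold, and its paralogue Nell1 had 2, the stronger 4.42-fold. Gpc1, a heparan sulphate proteoglycan gene whose product can bind Slit, had 1 of 7.37-fold. Hs6st1, for an enzyme that modifies heparan sulphate, had 1 of 3.93-fold at 972579 bp upstream.

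Among transcription factors in the list, Pax6, an eye-field regulator, had 7 peaks with the strongest (11.4-fold, pileup 81) 665 bp upstream of its TSS. Isl1, a LIM-homeodomain gene of ganglion cells, had 9 (strongest 9.33-fold, 907139 bp downstream), and the Iroquois gene Irx4 had 2 (9.29-fold). Within 5 kb of the TSS, 2 of the 54 had a peak, Flrt3 and Pax6, against 1.4% of all protein-coding genes. The remaining 36 entries had no assigned peak.

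Other families of guidance genes had peaks too. In a list of netrins, their receptors and related genes such as Rgma, 8 of 18 (44.4%) had an assigned peak. Dcc and Dscam were counted both there and among the Slit–Robo partners. Of Eph receptors and ephrins 9 of 22 (40.9%) had an assigned peak, and of semaphorins, plexins and neuropilins 7 of 31 (22.6%). A gene's strongest peak was also assigned to another gene in 6 of the 8, 5 of the 9 and all 7, in that order. Rgma, Epha3, Sema3a and Plxna4 were among these genes. The strongest peaks were at Rgma (17.0-fold) and Lrrc4c (16.01-fold), at Epha3 (62.8-fold) and Ephb4 (25.2-fold), and at Sema3a (11.8-fold) and Plxna4 (11.3-fold). The 92.4-fold Slit3 peak was above all of these. By number of assigned peaks, Epha3 had 10 and Unc5c had 7, the count of Robo1 and of Robo2. The other genes in these lists had 5 or fewer. Differences between the lists were not tested.

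**Figure D5:**
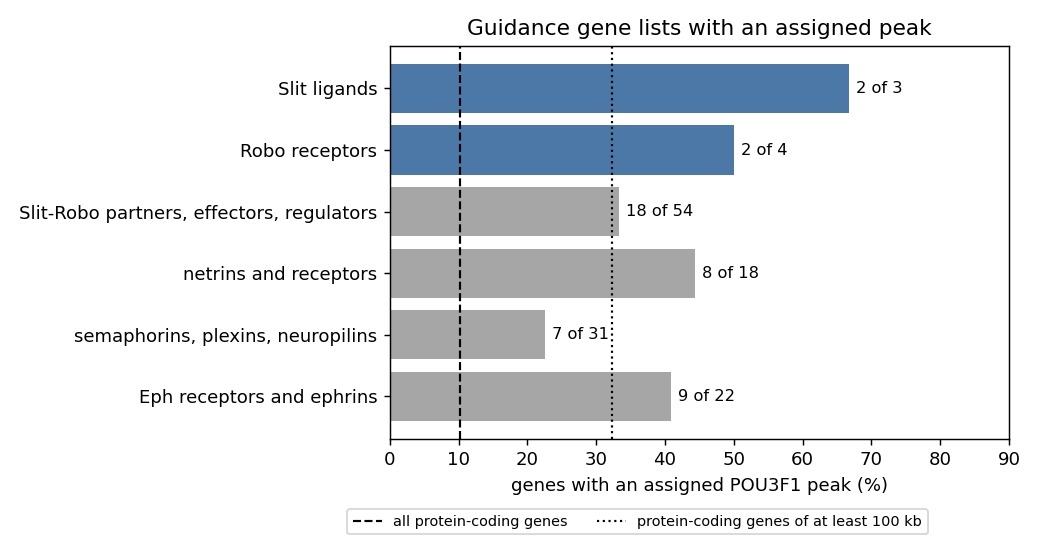
Share of genes with an assigned POU3F1 peak (%, horizontal axis) in each list of guidance genes, with the count beside each bar; the dashed line is all protein-coding genes (10.2%) and the dotted line those of at least 100 kb (32.3%). The Slit (2 of 3) and Robo (2 of 4) bars rest on very few genes.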

How the data were processed

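POU3F1 and rabbit IgG CUT&RUN libraries of E14 retina were described from the authors' peak list and gene table; the IgG signal was not analysed here. Per the submitters' processing notes, Bowtie2, MACS2 and deepTools were used, on mm10; their versions are not stated there. For each interval the authors deposited a fold (a ratio) at the summit, −log10 p-value and q-value, and a score (10 times the −log10 q-value without decimals). Per the file headers, genes were assigned with GREAT 4.0.4 (5000 bp upstream, 1000 bp downstream, up to 1000 kb).

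Distances were placed on peak midpoints by finding the TSS and strand that fit a gene's distances (tolerance 2 bp; 4289 of 4427 pairs, all 22 Slit and Robo pairs); genes sharing a peak were read from placed pairs. All 7 symbols matched the RefSeq table (GRCm38.p6, the assembly of mm10; 1-based coordinates); Slit1 is not in its promoter table, so its strand came from the distances. Library depth is unknown; the summit pileup was recovered from fold and Poisson p-value (within 0.001 on the −log10 scale), a step tested on simulated data. Intervals and limits for 0 peaks (3 counts) cover counting error only. With 1 library no test was made. Members and lists were chosen with earlier results of these data known. Named genes were all members, the genes sharing their peaks, neighbours, partners with a peak, and the 2 strongest of each other list. Unc5c was added for its number of peaks. The planned motif search in peaks was not run. Alternatives were stricter q-values, 10-fold, 50 kb and 5 kb limits, nearest TSS, and the position of a peak. Python 3.11.15, pandas 2.3.3 and SciPy 1.17.1 were used.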

Additional observations from a re-analysis of the deposited data

How the results depend on the processing

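With a q-value under 0.01 or 0.001, 4 Slit and Robo genes had a peak in either case, with 22 and 21 peaks, and 17 and 16 partner genes had one. Other settings keep a subset of peaks, and the counts fell accordingly. At 10-fold or more, 5 peaks remained of 22, at 3 of 4 genes (Slit1, Slit3, Robo1), and 6 of 18 partner genes. Within 50 kb of the TSS there were 4 peaks, at Slit1, Robo1 (2) and Robo2, and 5 partner genes. Within 5 kb, 1 gene with 1 peak (Slit1) and 2 partner genes were left. With the nearest assigned TSS alone, 14 peaks were left, 0 of them for Slit3, and 12 partner genes had one. An alternative chosen after seeing the data used any RefSeq start, or the 5′ end of the body for Slit1, which has none listed. By it 2 genes had a peak within 5 kb of a start, Slit1 and Robo2, in place of 1. All 22 peaks were in the gene bodies by midpoint, summit or any overlap of 1 bp. The motif setting was not run, for want of a genome. No paired analysis was possible because each antibody had 1 library. Of the 22 peaks, 9 rest on fewer than 20 fragments at the summit, as do 1343 of the 2607 peaks with a recovered pileup. Without a second library none of the 22 has a replicate check.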

Other observations

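Other genes overlapped or lay next to the Slit and Robo peaks. The last Slit3 peak (11.8-fold, chr11:35663519-35663924) also lay within Gm46278, a long non-coding RNA gene, and was the peak closest to Mir218-2. Robo2 holds a microRNA gene too, Mir691 (chr16:74341990-74342067), with the closest peak 28.4 kb away.

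Of the protein-coding genes next to the family, Lcor, Arhgap19, Pacrgl, Spdl1, Msantd2 and Hepacam had 0 assigned peaks. Gbe1, a glycogen branching enzyme gene 1458 kb from Robo1, had 2, Lcorl had 4, Pank3 had 6 and Lipi had 2. None of these neighbours had a peak inside its own body.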
